A study of Planococcus citri with 8 samples.

Results

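Of the 40620 gene models counted in *P. citri* females, 8 are described here: g27515, g27514, g8905, g13641, g16590, g29715, g6612 and g6886. They were chosen by name because of their values in the contrast of virgin with mated females, where they are nearly exclusive to virgin females. That contrast is therefore a description of them and no test. For 7 of them the deposited annotation gives no InterPro entry, as for 6085 gene models altogether, so no known protein family or domain has been assigned. The annotation used here does not list g6886, so its domains were not analysed here. The 8 gene models lie on 7 scaffolds of the Pcitri.v1 genome, and all 8 had enough counts to be among the 21179 that were tested.

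The samples were pools of approximately 150 whole adult *P. citri* females (approximately 100 mg) from 1 laboratory colony reared on green lemons in the dark. Of these pools 4 were virgin (replicates 2, 3, 5 and 6) and 4 were mated (replicates 8, 9, 10 and 11). Mated females came from the main stock colony once ovisacs (egg sacs) were seen. Virgin females came from lemons separated from the main colony, from which male cocoons were picked off. Mating, egg production and separate rearing therefore differ together and cannot be told apart. The paper does not give the age of the females, so a difference in age could not be assessed. A pool holds every tissue of the insect. In such bulk samples, fewer cells of a type and less RNA per cell cannot be told apart.

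*P. citri*, the citrus mealybug, is a sap-sucking scale insect whose wingless females attract flying males with a terpenoid sex pheromone. Virgin females emit it and production ceases after mating, when the female turns to egg production. InterPro entries are assigned by matching a protein to models of known families. Gene models without one can be lineage-specific or fast-evolving proteins, short secreted proteins, non-coding transcripts, or fragments of longer genes, and the absence of an entry does not separate these.

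Total counts ranged from 29667566 to 50301861 read pairs per pool, and 1 count was worth 0.0208 to 0.0327 CPM (TMM-scaled CPM, the count relative to library size). Levels below are in this unit, which compares a gene model with itself between pools. Gene lengths were not used, so CPM does not rank gene models against each other. Between pools of the same group, counts varied beyond sampling noise, with 26.0 to 368.5 as the chi-square value divided by its degrees of freedom, so each pool was kept as 1 replicate. Virgin replicate 2 stood apart. Its mean Pearson correlation of log2 CPM across genes was 0.912 with the other virgin pools and 0.921 with the mated pools, where the other virgin pools reached 0.947 to 0.959 with virgin and 0.795 to 0.821 with mated pools. Genes are not independent replicates, so these correlations are descriptive. The paper calls the pools biological replicates, and p-values set the difference between the groups against the spread between these pools. Only uniquely mapped read pairs were counted, and no source used here states whether counting took strand into account. A gene model with a near-identical copy, or overlapping another one, therefore has an uncertain count.

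Every virgin pool lay above every mated pool for all 8 gene models, a pattern shown by 22.1% of all tested genes. The lowest virgin pool was 10.6-fold (g16590) to 45.1-fold (g6886) above the highest mated pool. By fitted log2 fold change of virgin over mated females they took places 3 (g6886), 12 (g27515), 17 (g8905), 22 (g27514), 33 (g13641), 36 (g16590), 59 (g29715) and 100 (g6612) among 21179 tested genes. The place of g6886 rests on 1 mated count and moves with the prior count of the fit. Of the 100 genes changed at least as much as g6612, 43 had an InterPro entry, 39 were listed without one and 18 were not listed. A strict limit of at least 1 CPM in every virgin pool and at most 0.1 CPM in every mated pool was met by 2 tested genes, of which g6886 was 1. For the other 7 the highest mated pool held more than 0.1 CPM. This limit is a fixed level, and the virgin mean of g6886 was only 1.49 CPM. The upper ends of its exact counting intervals lay between 5.15% (mated replicate 10) and 10.6% (mated replicate 8) of that mean. Meeting the limit therefore does not show g6886 to be more restricted than the other 7, and "near-exclusive" is used for all 8.

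The gene models with the most counts were g27515, g27514 and g8905. g27515 (scaffold PCITRI_00310) had 27247, 20730, 12631 and 15283 counts in virgin replicates 2, 3, 5 and 6, or 765, 678, 326 and 399 CPM. In mated replicates 8, 9, 10 and 11 it had 2, 1043, 0 and 214 counts, or 0.0566, 25.4, 0 and 6.20 CPM. The virgin pools spanned 2.35-fold, while the mated pools ran from 0 to 1043 counts, and mated replicate 9 held 80.2% of the mated CPM. The group means were 542 ± 213 and 7.92 ± 12.0 CPM (SD, n = 4 each), a 68.5-fold difference and a fitted log2 fold change of 6.10 (standard error 1.37). In virgin replicate 2, g27515 alone took 0.0792% of all counted read pairs.
g27514 is the next gene model on the same scaffold. It had 9095, 9899, 7208 and 7718 counts in virgin replicates 2, 3, 5 and 6 (255, 324, 186 and 201 CPM) and 0, 552, 3 and 140 counts in mated replicates 8, 9, 10 and 11 (0, 13.5, 0.0624 and 4.06 CPM). Virgin pools were closer to each other than for g27515, and the mated pools kept the order seen there for replicates 9 and 11. Its means were 242 ± 62.5 and 4.39 ± 6.33 CPM, and the fitted log2 fold change was 5.78 (standard error 1.22).
g8905 lies on another scaffold, PCITRI_02322. Its virgin pools held 10304, 8012, 5088 and 4704 counts (289, 262, 131 and 123 CPM), and its mated pools held 0, 435, 0 and 62 counts (0, 10.6, 0 and 1.80 CPM). Again replicate 9 and, at a lower level, replicate 11 carried nearly all of the mated counts. The means were 201 ± 86.7 and 3.10 ± 5.07 CPM, with a fitted log2 fold change of 6.02 (standard error 1.28).
These 3 fold changes rest on mated replicate 9. Without it they were 8.03 for g27515, 7.48 for g27514 and 8.44 for g8905, and limma voom, which works on log values of each pool, gave 9.93, 8.95 and 9.75. In the pools without a count, 3 counts would have been 0.0624 to 0.0849 CPM, and this limit covers counting error only.

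Of the other gene models, g16590 had the most counts. It is alone on its scaffold, PCITRI_05485, with 848, 1567, 1667 and 1660 counts in virgin replicates 2, 3, 5 and 6 (23.8, 51.3, 43.0 and 43.3 CPM) and 12, 92, 15 and 27 counts in mated replicates 8, 9, 10 and 11 (0.340, 2.24, 0.312 and 0.782 CPM). Virgin replicate 2 was the lowest virgin pool and mated replicate 9 the highest mated pool. Means were 40.4 ± 11.7 and 0.919 ± 0.908 CPM, and the fitted log2 fold change was 5.45 (standard error 0.59).
g13641 (PCITRI_03683) had 402, 691, 618 and 808 counts in the virgin pools (11.3, 22.6, 15.9 and 21.1 CPM) and 2, 41, 10 and 10 in the mated pools (0.0566, 0.999, 0.208 and 0.290 CPM). Replicate 2 was again the lowest virgin pool and replicate 9 the highest mated pool. The fitted log2 fold change was 5.49 (standard error 0.64) from means of 17.7 ± 5.15 and 0.388 ± 0.418 CPM. Without mated replicate 9 it was 6.54, and that of g16590 was 6.40.
g29715 (PCITRI_00427) had 339, 471, 608 and 614 virgin counts (9.52, 15.4, 15.7 and 16 CPM) and 6, 33, 19 and 15 mated counts (0.170, 0.804, 0.395 and 0.435 CPM). Virgin replicates 3, 5 and 6 were nearly equal and replicate 2 lay below them. The fitted log2 fold change was 4.95 (standard error 0.40) from means of 14.2 ± 3.10 and 0.451 ± 0.263 CPM.
g6612 (PCITRI_01909) had 322, 483, 726 and 646 virgin counts (9.04, 15.8, 18.7 and 16.9 CPM) and 28, 31, 35 and 17 mated counts (0.793, 0.755, 0.729 and 0.492 CPM). It was the only 1 of the 7 gene models listed without an entry whose mated pools lay close together. Its means were 15.1 ± 4.22 and 0.692 ± 0.136 CPM, and its fitted log2 fold change of 4.44 (standard error 0.26) had the smallest error of the 8.

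g6886 (PCITRI_01958) had the fewest counts. There were 52, 59, 50 and 49 counts in the virgin pools, or 1.46, 1.93, 1.29 and 1.28 CPM, and a single count in the mated pools, in replicate 8 (0.0283 CPM). With 210 virgin counts against 1, the ratio of virgin to mated females was 233, with an exact 95% counting interval of 41.4 to 9244. Its virgin pools varied the least of the 8, with a coefficient of variation of 20.5%, where g8905 had 43.1% and the median of all tested genes was 27.4%. A fitted log2 fold change is not informative at 1 count: it was 7.27 with the default prior count and 4.70 with a prior count of 2.

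**Figure D1:**
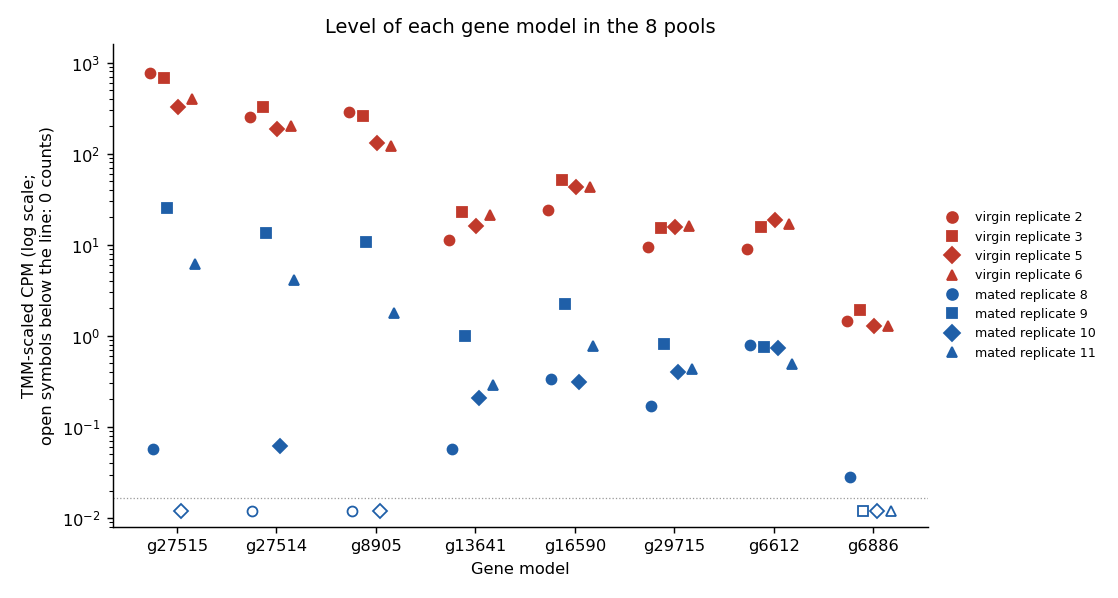
TMM-scaled CPM of the 8 gene models in each pool, on a log axis, with virgin pools in red and mated pools in blue. Open symbols under the dotted line are pools with 0 counts at an arbitrary height, each red symbol stands above all blue symbols of the same gene model, and the blue symbols spread most for g27515, g27514 and g8905.

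The counts left in mated pools were not evenly spread. Expressed as a percent of the virgin mean of the same gene model, mated replicate 9 held 4.69% of g27515, 5.57% of g27514, 5.26% of g8905, 5.63% of g13641, 5.56% of g16590, 5.68% of g29715 and 5.0% of g6612. These 7 values thus lay between 4.69% and 5.68%, although the virgin means of the gene models ranged from 14.2 to 542 CPM. Whether mated replicate 9 held RNA of some virgin females was not tested, and its levels and the fold changes that rest on them carry this limit. Exact 95% counting intervals ran from 4.41% to 4.98% for g27515 and from 3.91% to 7.98% for g29715. For g6886 no count was seen in replicate 9, where 3 counts would have been 4.91% and the exact 95% interval reached 6.03%, so the other 7 values lay within its counting error.
In the other mated pools the gene models differed. Mated replicate 8 held at most 0.0104% of g27515, g27514 and g8905, but 0.319% of g13641, 0.842% of g16590, 1.20% of g29715 and 5.25% of g6612. Mated replicate 10 held at most 0.0258% of the first 3, 0.774% of g16590, 1.17% of g13641, 2.79% of g29715 and 4.82% of g6612. Replicate 11 held 0.892% to 1.68% of the first 3 and 1.63% to 3.26% of the next 4, and it was the lowest mated pool for g6612.
g6612 thus had similar levels in all mated pools, whereas g27515, g27514 and g8905 were at or near 0 in replicates 8 and 10. The intervals of g27515 in replicates 9 (4.41% to 4.98%), 11 (0.996% to 1.31%) and 8 (0.00127% to 0.0377%) did not overlap. They cover counting error only, and counts of mated pools varied beyond it (chi-square divided by its degrees of freedom 26.0 to 96.0). Of the mated CPM of g27515, g27514 and g8905, mated replicate 9 held 76.6% to 85.5%. For all tested genes the median share of replicate 9 was 24.8%.
The same percent was taken over the 175 tested genes whose virgin mean was at least 16 times the mated mean, a set defined from its values and given without a test. Mated replicate 9 was the highest mated pool for 49.7% of them and replicate 8 for 43.4%, with medians of 5.0% and 4.62%, while replicates 10 and 11 had medians of 1.30% and 2.05%. Of the 8 gene models 6 were highest in replicate 9 and 2, g6612 and g6886, in replicate 8. Over the 175 genes the quartiles for replicate 9 were 1.43% and 8.53%.

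**Figure D2:**
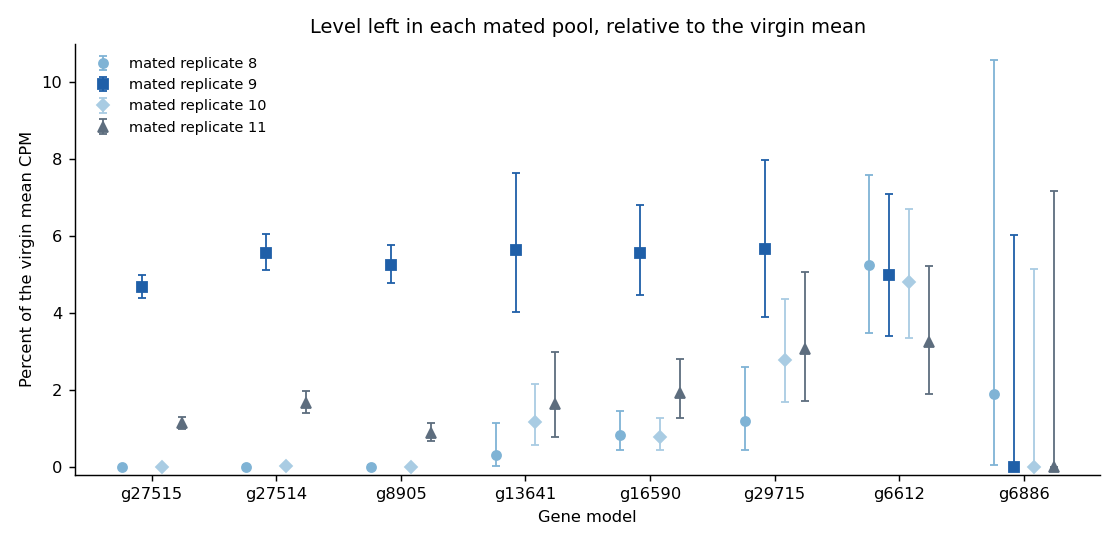
Level of each gene model in each mated pool as a percent of its own mean over the 4 virgin pools, with exact 95% Poisson counting intervals as bars. The squares of mated replicate 9 lie between 4.69% and 5.68% for the first 7 gene models, and replicates 8 and 10 go from at or near 0% for g27515, g27514 and g8905 to 5.25% and 4.82% for g6612.

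Within the virgin group the gene models followed different courses across pools. In replicate 2, g27515 was 1.64-fold and g8905 1.68-fold above the mean of the other virgin pools, whereas g13641, g16590, g29715 and g6612 were at 0.568, 0.519, 0.606 and 0.528 of it. g27514 and g6886 lay close to the others in this pool, at 1.08 and 0.974. Among all tested genes, virgin replicate 2 was the highest virgin pool for 38.4% and the lowest for 39.5%, more often than any other virgin pool in both directions. A gene model being highest or lowest in it is thus common in these data. For g8905 86.5% of tested genes had a lower ratio of replicate 2 to the other virgin pools, and for g16590 21.0% did. Neither was thus extreme among all tested genes. These include genes higher and genes lower in virgin females, and genes with a similar fold change were not compared on their own.
Pairs of gene models that kept their proportion over the virgin pools fell into the same sets. These ratios use the same virgin pools as the levels above, so they restate that pattern in part. The ratio of g27515 to g8905 counts was 2.64, 2.59, 2.48 and 3.25 in virgin replicates 2, 3, 5 and 6, and 2.40 and 3.45 in mated replicates 9 and 11. The ratio moved by 1.31-fold over virgin pools in which each gene model moved by about 2.35-fold. As narrow a ratio was kept by 0.468% of tested genes with g27515 and by 0.213% with g8905. For g27514 and g6886, the narrowest of the 28 pairs (1.21-fold), the shares were 0.302% and 0.501%. Pairs were singled out after their ratios were seen, so these shares are a description. They lie on different scaffolds.
g13641 and g16590 kept a ratio of 0.474, 0.441, 0.371 and 0.487 in the virgin pools and 0.446 in mated replicate 9. In mated replicates 8, 10 and 11 it was 0.167, 0.667 and 0.370, on only 2, 10 and 10 counts of g13641. The ratio of g29715 to g6612 counts stood at 1.05, 0.975, 0.837 and 0.95 in the virgin pools. In mated replicate 8, however, the latter ratio was 0.214, with 6 and 28 counts. As narrow a ratio was kept by 1.74% of tested genes with g13641 and 2.47% with g16590, and by 3.09% with g29715 and 2.24% with g6612.
The neighbours g27515 and g27514 were less proportional, with ratios from 1.75 to 3.0 over the virgin pools, highest in replicate 2. Over all 28 pairs the ratio moved by 1.21-fold (g27514 and g6886) to 4.86-fold (g27515 and g6612), with a median of 2.11-fold. With 4 pools a group no correlation between gene models was computed, and pooling both groups would only restate the contrast.

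**Figure D3:**
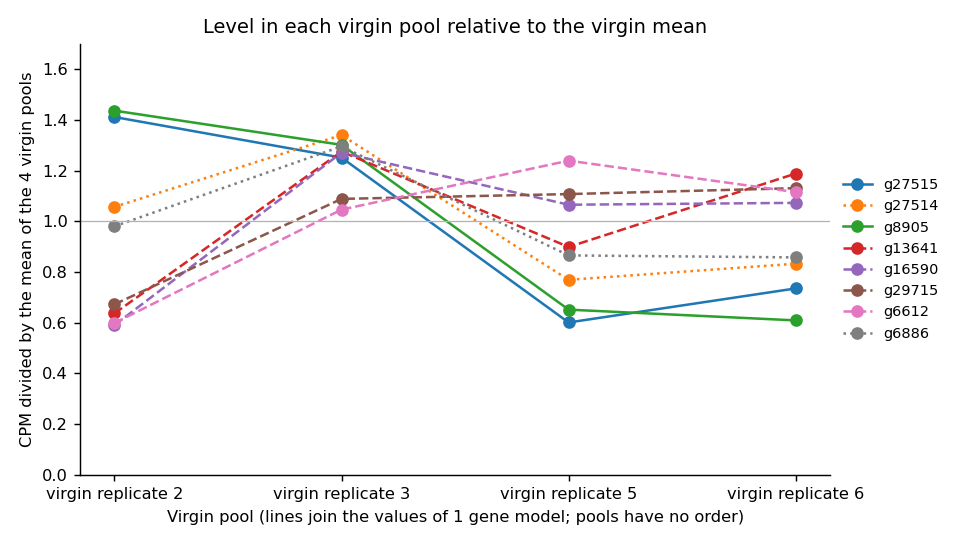
CPM of each gene model in each virgin pool divided by its mean over the 4 virgin pools. Solid lines (g27515 and g8905) are highest in replicate 2, dashed lines (g13641, g16590, g29715 and g6612) are lowest there, and dotted lines (g27514 and g6886) lie near 1 in that pool.

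The genes with the most similar profiles over the 8 pools were found by the root mean square difference of log2 CPM, centred per gene, over all tested genes. The contrast that chose the 8 gene models enters this measure, so likeness is a description. g16590 stood closest to g14822 and g14825, the gene models of the *trans*IDS12 isoprenyl diphosphate synthase candidate, both with a polyprenyl synthetase entry, at 0.15 and 0.26 log2 units. Isoprenyl diphosphate synthases join the building blocks of terpenoids. The paper tested the *trans*IDS12 protein made in *E. coli* and detected no joining of these blocks into short chains. g14822 had 2079, 4251, 4132 and 4293 counts in virgin replicates 2, 3, 5 and 6 and 38, 196, 48 and 65 in mated replicates 8, 9, 10 and 11. Like g16590 it was lowest in virgin replicate 2 and highest among mated pools in replicate 9. Its mated pools held 1.03%, 4.59%, 0.960% and 1.81% of its virgin mean, where g16590 had 0.842%, 5.56%, 0.774% and 1.94%.
Outside the 8, g13641 was nearest to g14825 (0.34), the type B carboxylesterase g5578 (0.38) and g14822 (0.38), and g16590 lay at 0.36. Carboxylesterases cleave esters. g5578 had 536, 615, 588 and 658 virgin and 4, 30, 6 and 11 mated counts, without the low value of g13641 in virgin replicate 2. g29715 was nearest to the UDP-glycosyltransferase g5905 (0.36), a family that conjugates small molecules with sugars, to g14928 (0.42), which has no InterPro entry, and to g14825 (0.51).
g27515, g27514 and g8905 were each other's nearest genes, at 0.45 to 0.51 log2 units from the closest of the 3. Outside the 8, all 3 were nearest to g23689, which has a pheromone or general odorant binding protein entry (1.61, 1.14 and 1.19), followed by g6655, a peptidase M13 family gene (1.82, 1.32 and 1.48). Odorant binding proteins carry small hydrophobic molecules. g23689 had 1849, 2278, 1870 and 1693 virgin counts and 0, 53, 2 and 13 mated counts, so replicates 9 and 11 were its higher mated pools as well. In replicate 9 it held 2.36% of its virgin mean, below the 4.69% to 5.57% of the 3 gene models. Next in order was g12783, which has no entry, for g27515 (2.60) and g27514 (2.16), and g5578 for g8905 (2.25).
Outside the 8, g6612 was nearest to g8596 and g38720, both without an entry, and to the peptidase C26 family gene g26355 (0.43, 0.50 and 0.50), while g6886 lay at 0.44. These 3 also had counts in all mated pools, with 32 to 425 mated counts in total. g6886 was nearest to g6612 at 0.44 and, outside the 8, to g5905, g8789 and g9675 (0.57, 0.59 and 0.62). The log2 CPM used a prior count of 2, which narrows differences between low counts. Without virgin replicate 2, 15 of these 24 pairings (3 nearest genes for each of the 8) were found again, with none (0 of 3 each) for g6612 and g6886. Several genes, such as g23689 and g14825, occur in more than 1 pairing.

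**Figure D4:**
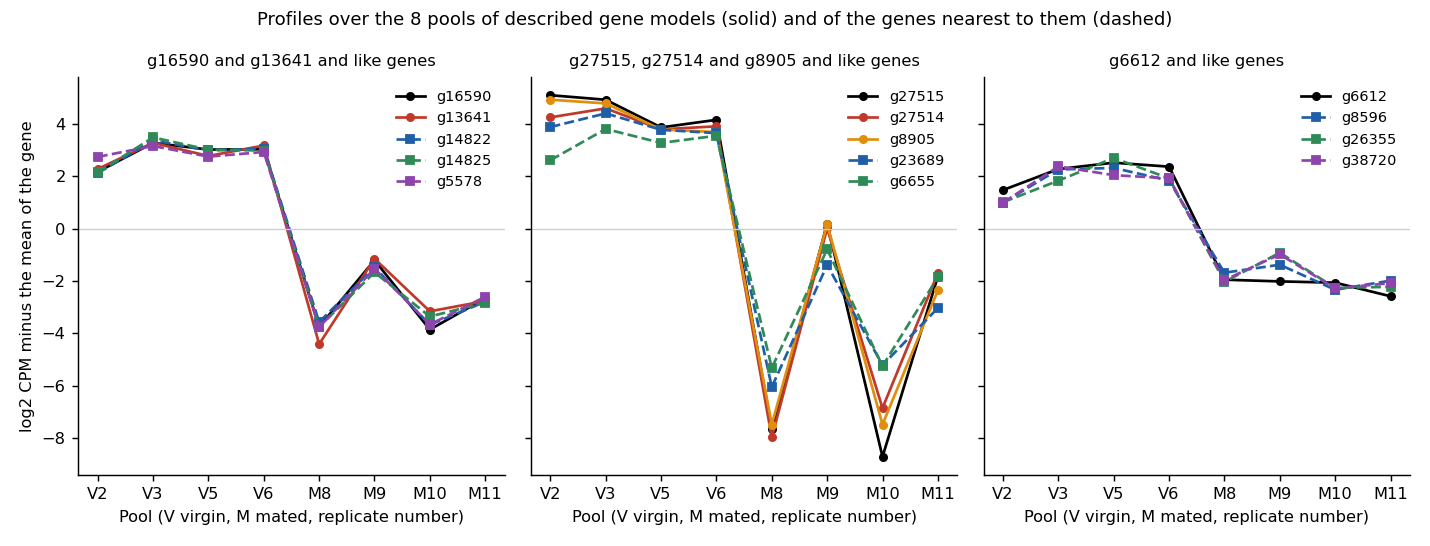
Log2 CPM over the 8 pools, with the mean of each gene subtracted, for gene models described here (solid lines, circles) and genes nearest to them in profile (dashed lines, squares). g16590 and g14822 differ by 0.15 log2 units in root mean square, g27515, g27514 and g8905 drop furthest in mated replicates 8 and 10, and g6612 stays level across the mated pools.

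The genomic surroundings were not used to choose the 8 gene models, so their neighbours could be tested in the contrast. Gene numbers run consecutively on all but 1 of the 7784 scaffolds, and neighbours were taken as gene models within 5 numbers on the same scaffold. There were 37, of which 5 had no count in any pool and 23 had enough counts to be tested. At an adjusted p under 0.05 (edgeR's quasi-likelihood test, Benjamini-Hochberg over 21179 genes) 9 of the 23 passed as higher in virgin females and 3 as lower, and 11 did not pass, against 26.4% higher and 21.3% lower among all tested genes. The median log2 fold change was 0.67 in the 23 and 0.03 in all tested genes. Neighbours on 1 scaffold are not independent of each other. A neighbour that is part of the same longer gene as a described gene model would share its change, and this was not tested.
The higher neighbours were concentrated on 2 scaffolds. On PCITRI_01909 all 3 tested neighbours of g6612 were higher, and none has an InterPro entry. g6611, the adjacent one, had 305, 1004, 1491 and 1093 counts in virgin replicates 2, 3, 5 and 6 and 84, 110, 56 and 36 in mated replicates 8, 9, 10 and 11. Every virgin pool was above every mated pool, and replicate 2 was the lowest virgin pool, as for g6612. The means were 27.1 ± 13.0 and 1.82 ± 0.834 CPM (SD, n = 4), which differed by 3.90 ± 0.49 on the log2 scale (standard error; edgeR adjusted p = 0.00164).
g6608 had 2443, 8832, 14324 and 11654 virgin and 1448, 1951, 1154 and 859 mated counts, a difference of 2.91 ± 0.47 log2 units (edgeR adjusted p = 0.00302). g6607 had 82, 155, 205 and 183 virgin and 41, 22, 36 and 15 mated counts, a difference of 2.59 ± 0.38 (edgeR adjusted p = 0.00208). Both had their lowest virgin level in replicate 2 and no overlap between the groups. The 3 calls held under all 14 settings, the main one included, with adjusted p-values up to 0.0134. The other 6 neighbours on this scaffold had too few counts, 2 of them none.
On PCITRI_02322, 4 of 6 tested neighbours of g8905 were higher and 1 was lower. Just before g8905, g8903 had 924, 1632, 1336 and 2517 virgin and 488, 527, 161 and 276 mated counts (2.24 ± 0.45 log2 units, edgeR adjusted p = 0.00599). The adjacent g8904 had 1415, 1612, 1419 and 3006 virgin and 1086, 1131, 373 and 543 mated counts (1.34 ± 0.43, edgeR adjusted p = 0.0325). Neither has an entry, and neither was highest in virgin replicate 2 as g8905 was. After it, g8906 went the other way. It had 2170, 861, 617 and 602 virgin and 2360, 2794, 4176 and 3076 mated counts (-1.36 ± 0.42, edgeR adjusted p = 0.0294). In virgin replicate 2, where g8905 was highest, g8906 stood at 61.0 CPM, close to the mated pools (66.8 to 89.1 CPM), and the other virgin pools were at 15.7 to 28.2 CPM. g8907, which did not pass (adjusted p = 0.0544, edgeR), had the same shape with 824, 276, 197 and 224 virgin and 734, 977, 1333 and 1028 mated counts.
Further along, g8908, a short-chain dehydrogenase/reductase, a family of oxidoreductases, had 24.1 ± 2.75 and 7.69 ± 4.25 CPM (1.65, adjusted p = 0.00621, edgeR), and g8910, a membrane bound O-acyl transferase, an enzyme type that attaches fatty acids to alcohols or proteins, had 25.9 ± 7.04 and 16.5 ± 1.15 CPM (0.65, adjusted p = 0.0260, edgeR). Calls for g8903 and g8908 held under all settings. The other 3 depended on single pools. For g8904 the edgeR adjusted p rose to 0.0655 on leaving out virgin replicate 3, 0.0866 for virgin 6 and 0.0892 for mated 11. Over all settings, DESeq2 and limma voom included, the adjusted p spanned 0.00713 (DESeq2) to 0.0892. For g8906 it rose to 0.0722 on leaving out virgin 3, 0.0560 for virgin 5, 0.0658 for virgin 6, 0.0625 for mated 10 and 0.0703 for mated 11 (span 0.000375 to 0.0722). For g8910 it rose to 0.0600 on leaving out virgin 3, 0.0629 for virgin 5, 0.0614 for mated 8, 0.0544 for mated 9, 0.0797 for mated 10 and 0.0538 for mated 11 (span 0.00181 to 0.0797).

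**Figure D5:**
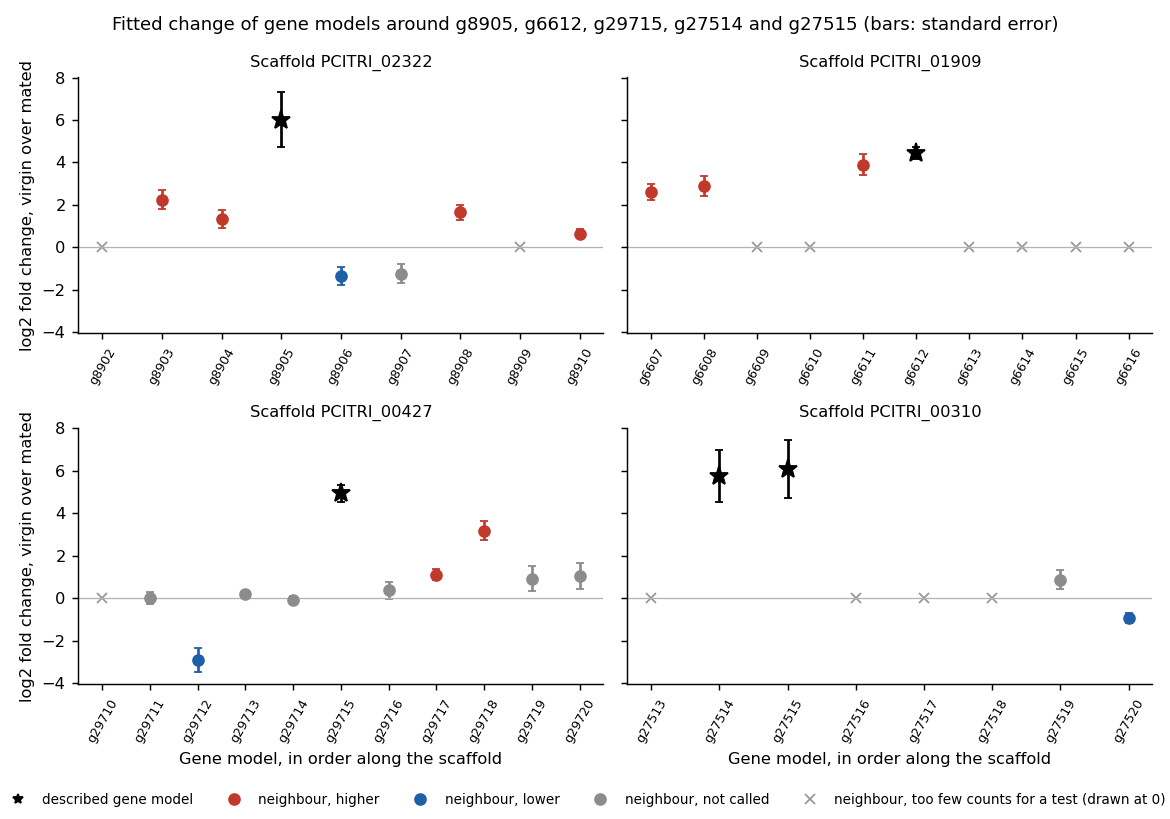
Fitted log2 fold change of virgin over mated females (with standard error) of the gene models within 5 numbers of g8905, g6612, g29715, g27514 and g27515, in their order along 4 scaffolds. Black stars are the gene models described here, red and blue circles are neighbours called higher and lower, grey circles did not pass and crosses mark neighbours with too few counts, drawn at 0. The neighbours of g6612 are red where tested, while those directly beside g29715, and those directly beside g27514 and g27515, are grey or without enough counts.

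On the other scaffolds 2 of the tested neighbours were higher, both near g29715. On PCITRI_00427, g29715 lies between the small GTPase gene g29714 (a family of molecular switches) and g29716, which has no entry. Their log2 fold changes were -0.07 (adjusted p = 0.771, edgeR) and 0.37 (adjusted p = 0.449, edgeR). Of the 9 tested there, g29718, which has no entry, was higher at 7.04 ± 3.50 against 0.775 ± 0.253 CPM (3.18, adjusted p = 0.00204, edgeR), as was the glycoside hydrolase family 31 gene g29717, a family of sugar-cleaving enzymes, at 71.4 ± 23.0 against 33.1 ± 4.83 CPM (1.11, adjusted p = 0.00860, edgeR). g29712 was lower at 0.177 ± 0.184 against 1.35 ± 0.226 CPM (-2.91, adjusted p = 0.00516, edgeR). These 3 calls held under all settings.
On PCITRI_00310, g27514 and g27515 lie side by side among 8 gene models, between g27513, with no count in any pool, and g27516, with 8 virgin counts and no mated count. The nearest tested ones were g27519, a LIM-type zinc finger gene, which had 356 ± 180 and 194 ± 90.0 CPM and did not pass (0.88, adjusted p = 0.139, edgeR), and g27520, with a TauD/TfdA-like domain, which was lower (-0.95, adjusted p = 0.0121, edgeR). g27519 passed without virgin replicate 2 (adjusted p = 0.0424, edgeR), in a range from 0.0424 to 0.309. The tetratricopeptide repeat gene g6885, beside g6886, had 50.7 ± 4.80 and 43.8 ± 1.25 CPM (0.21, adjusted p = 0.0921, edgeR), and g13642, beside g13641, had 0.458 ± 0.248 and 0.736 ± 0.194 CPM (-0.70, adjusted p = 0.208, edgeR). Neither passed under any setting.

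Among all tested gene models listed without an InterPro entry, the class to which 7 of the 8 belong, changes of both directions were about equally frequent. Of 6075 such gene models 1613 (26.6%) were higher and 1587 (26.1%) lower in virgin females (edgeR). Of 11578 with an entry, 3276 (28.3%) were higher and 2370 (20.5%) lower. The median log2 fold change was -0.08 without and 0.05 with an entry.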

How the data were processed

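RNA-seq of polyadenylated RNA was compared between 4 virgin and 4 mated pools. The counts deposited by the authors are uniquely mapped read pairs per Pcitri.v1 gene model, made in CLC Genomics Workbench after trimming and quality filtering. The authors also deposited log2 CPM values, with no formula stated in the sources used, which served as an alternative only. Fold changes on a log2 scale with their adjusted p-values, from the authors' own comparison, stand in another deposited table and were not used; its InterPro entries were. The labels of the series name R 3.4.2, edgeR 3.20.9 and limma 3.34.9.

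Counts were analysed with edgeR 4.0.16 (R 4.3.3): default filterByExpr, TMM scaling and the quasi-likelihood F test, two-sided, on condition alone, with Benjamini-Hochberg adjustment. The standard error given is the Wald error of each coefficient. The test was tried on simulated data with known changes. DESeq2 1.42.0, limma voom 3.58.1, other scalings, no filter and leaving out each pool were alternatives. Counting intervals are exact (95%) and cover counting error only. The 8 gene models and all rules were chosen with earlier results of these data known. Named were these 8, called or nearest tested neighbours within 5 gene numbers, and the 3 nearest profiles for each. No sequence or coordinate of these gene models was used here.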

Additional observations from a re-analysis of the deposited data

Results flagged for a closer look

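In 15 of 88 groups of 4 pools, over 44 named or neighbouring genes, a single pool lay further from the rest than Dixon's 95% critical value allows. For normally distributed values chance flags about 1 group in 20, a rate that need not hold for these CPM values. These genes also share pools, and the nearest profiles among them were chosen for likeness over the same pools. The number of flagged groups can therefore not be read as an excess. For g6886, g8789 and g9675 in mated pools the other 3 pools had 0 counts, so that any pool with a count meets the criterion, and it carries no information there. Of the 8 gene models, g8905 stood at 10.6 CPM in mated replicate 9 (others up to 1.80), g29715 at 9.52 CPM in virgin replicate 2 (others 15.4 to 16), and g6886 at 0.0283 CPM, its single mated count, in mated replicate 8. Mated replicate 9 was also apart for the nearest profiles g14928 (0.195 CPM), g26355 (2.51), g38720 (4.53), g8789 (0.0487) and g9675 (0.0731), all above the other mated pools, and for the neighbour g29713 (33.9), below them. g8789 stood at 2.19 CPM in virgin replicate 3 as well. Among neighbours, mated replicate 8 was above the others for g29711 (26.3 CPM), g29719 (40.0 CPM, others 6.56 to 8.20) and g29720 (3.4), virgin replicate 5 for g29711 (33.6) and virgin replicate 2 for g6885 (57.8).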

How the results depend on the processing

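No paired analysis was possible because the virgin and mated pools share no replicate number. Counts of genes stayed within 1.5 times their main value under every alternative: 4217 to 6891 genes were higher and 3438 to 6724 lower in virgin females, 1287 to 1840 and 1237 to 2294 of those without an InterPro entry, and 7 to 12 and 2 to 4 of the scaffold neighbours. All 8 gene models were higher in virgin females under each setting run, a direction fixed by how they were chosen. Their log2 fold changes ranged, over alternatives, from 5.66 to 9.93 (g27515), 5.35 to 8.95 (g27514), 5.57 to 9.75 (g8905), 5.13 to 6.54 (g13641), 5.13 to 6.40 (g16590), 4.68 to 5.37 (g29715), 4.30 to 4.61 (g6612) and 4.70 to 8.82 (g6886). In mated replicate 9 the percent of the virgin mean ranged from 4.14 to 6.28 for the 7 gene models with a count there. Of the neighbours that did not pass, g27519 (adjusted p = 0.0424, edgeR) and g29713 (0.0171) passed only without virgin replicate 2, g29719 (0.00445) and g29720 (0.00642) only without mated replicate 8, and g8907 without virgin replicate 2 (0.000337), with upper-quartile factors (0.0408), DESeq2 (0.0159) and limma voom (0.0139). Without virgin replicate 2, 15 of the 24 pairings of a gene model with a nearest profile were found again. Depth limits g6886 most, with 1 mated count.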

Other observations

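A few neighbours had too few counts for the main test but were not silent. g6614, 2 gene numbers after g6612, had 9, 38, 46 and 38 counts in virgin replicates 2, 3, 5 and 6 and 8, 3, 2 and 7 in mated replicates 8, 9, 10 and 11. Where it entered the test, without a filter and without virgin replicate 2 or any 1 mated replicate, it was higher in virgin females in each fit (log2 fold change 2.43 to 3.13, adjusted p from 0.00131 to 0.0292, edgeR). g13643, on the scaffold of g13641, had 11 virgin counts and 1 mated count, and without a filter its log2 fold change was 3.08 (adjusted p = 0.0312, edgeR). Both were named after their values were seen.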
